A study of Mus musculus with 2 samples.

Results

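The 10 genes described here are markers of oligodendrocyte precursor cells: Pdgfra, Cspg4, Cspg5, Vcan, Pcdh15, Lhfpl3, Cacng4, C1ql1, Matn4 and Emid1. They were taken by gene name from the deposited gene table, and all 10 of 10 were found among 51826 genes, together with their 86 of 128622 listed transcripts. Bulk RNA was made from whole spinal cord at postnatal day 7, in mice of the C57BL/6 strain. The 2 groups were mice carrying Olig1-Cre with Secisbp2l floxed at exon 3 (cKO) and wild-type mice (WT), with 1 library each. Olig1-Cre acts in cells that express Olig1, mainly the oligodendrocyte lineage, so the cords also held cells in which it does not act. The number of animals behind each library is not given in the labels. Since neither group has a second library, no difference has a replicate check and no test was possible. The intervals given are 95% intervals that cover counting error only.

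Oligodendrocyte precursors are the dividing cells from which myelin-forming oligodendrocytes arise. They are held in division largely by platelet-derived growth factor acting on its alpha receptor, and they leave this state through a committed stage before they make myelin. They carry chondroitin sulfate proteoglycans on their surface and in the matrix around them, and they receive glutamatergic synapses from neurons. Several of these markers are also transcribed elsewhere: Pdgfra in fibroblasts, Cspg4 in pericytes, Vcan in connective tissue, and Cspg5 in neurons and astrocytes.

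The libraries held 55179026 estimated counts in cKO and 42875143 in WT, with about 2 counts to a fragment. Secisbp2l itself, a paralog of the SECIS-binding protein gene Secisbp2, stood at 161 TPM (the transcript abundance unit of the files, set per length) in cKO and 196 TPM in WT, and these whole-gene values do not isolate exon 3. Olig1, the gene the Cre line is named for, stood at 186 TPM in cKO and 401 TPM in WT. The libraries also differed in sex-linked genes: Xist had 13 counts in cKO and 35182 in WT, and Ddx3y 4280 in cKO and 0 in WT. Genotype and this difference cannot be told apart. None of the 10 marker genes is on a sex chromosome; 3 are on chromosome 11, 2 on chromosome 5 and 2 on chromosome 9.

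The marker genes were close between the libraries. Levels are given as TPM, a unit set per transcript length, and ratios as log2 of cKO over WT on CPM (counts over library size) with library sizes scaled by TMM. All 10 had log2 ratios between -0.27 and 0.19, with a median of -0.10, against 0.01 over the 15917 genes with a mean of at least 1 CPM. None of the 10 was 1.5-fold higher or lower with an interval that left out a ratio of 1. Among all measured genes 2.46% were higher and 3.42% lower by that rule. At 1.2-fold, 1 of the 10 was lower (Lhfpl3) and 0 were higher, where all genes gave 9.91% lower and 8.48% higher. Below 0 lay 6 of the 10, against 47.7% of all genes. On the authors' TPM the median was 0.01, against 0.05 over all measured genes. Only 4 of the 10 lay below 0 on TPM, since the ratios of Cspg4 and Vcan changed sign. Summed over the 10 genes, the level was 643 TPM in cKO and 623 TPM in WT. Cspg5 alone made up 210 TPM of that sum in cKO and 180 TPM in WT. In whole cord, fewer cells of a type and less RNA per cell cannot be told apart.

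**Figure D1:**
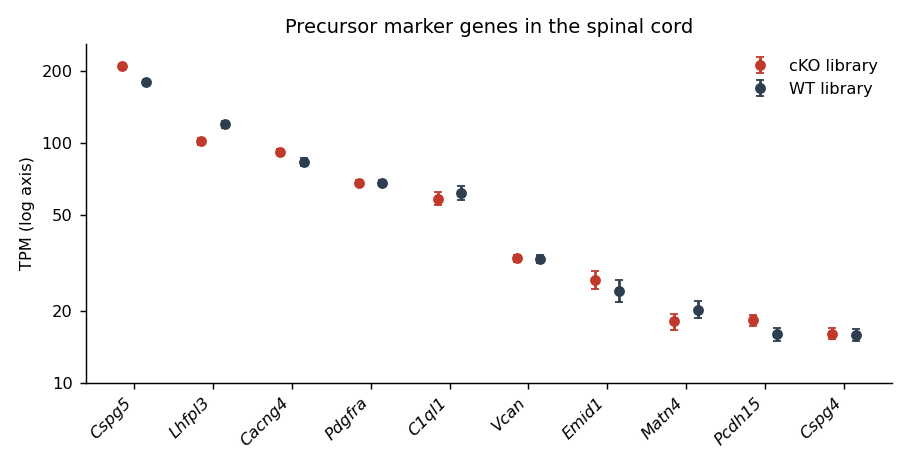
TPM of the 10 marker genes on a log axis in the cKO library (red, left) and the WT library (dark, right). Bars are 95% Poisson intervals that cover counting error only. Cspg5 is highest in both libraries, at 210 TPM in cKO and 180 TPM in WT, and Cspg4 lowest, at 16.04 TPM in cKO and 15.8 TPM in WT.

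The order of the levels was nearly the same in both libraries. From the top it ran Cspg5, Lhfpl3, Cacng4, Pdgfra, C1ql1, Vcan and Emid1 in both. Matn4, Pcdh15 and Cspg4 followed, between 16.04 and 18.2 TPM in cKO and between 15.8 and 20.2 TPM in WT. Neighbours in that order whose counting intervals overlapped were Pcdh15 with Matn4 and Matn4 with Cspg4 in cKO. In WT they were Pdgfra with C1ql1, Emid1 with Matn4, and Pcdh15 with Cspg4. Cspg5 stood above 95.9% of measured genes in cKO and 95.04% in WT, whereas Cspg4 stood above 43.5% and 43.8%, so the markers range from abundant to middling transcripts in this tissue.

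Pdgfra, the receptor for the mitogen PDGF-AA, was almost level. The gene spans chromosome 5, 75152292 to 75198215 (plus strand, in GRCm38, the build of all positions given). It had 9962 counts and 68.4 TPM in cKO, against 8161 counts and 68.5 TPM in WT. The log2 ratio was -0.07 (interval -0.13 to -0.01), and -0.002 on TPM. Beneath this level total, the authors' estimates divided the gene differently between its transcripts, and the intervals do not cover that assignment. Pdgfra-202 held 93.6% of all Pdgfra counts in cKO (Wilson interval 92.9% to 94.2%) and 89.6% in WT (88.6% to 90.5%). Pdgfra-201, which has the same coding length of 3267 nt, had 112 counts in cKO and 512 in WT, a log2 ratio of -2.55 (-3.00 to -2.13). Pdgfra-208 and Pdgfra-205, with a shorter coding length of 2370 nt, had ratios of 1.24 and -1.14. These last 3 hold under 10% of the gene and were chosen after their values were seen.

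The other genes of the PDGF family also lay within 1.5-fold. Of 7 measured ligand and receptor genes, Pdgfra included, 0 were past the 1.5-fold rule in either direction, 4 lay below 0, and the median was -0.07. Pdgfa, which encodes a ligand of the alpha receptor, stood at 70.2 TPM in cKO and 55.7 TPM in WT. Its log2 ratio on counts was 0.13 (0.01 to 0.25), and its TPM levels lay further apart than that. Pdgfrl, a receptor-like gene, had -0.19 (-0.40 to 0.02). Pdgfc and Pdgfd, named after their values were seen, were lower at the 1.2-fold size, with ratios of -0.48 and -0.49. Among fibroblast and meningeal markers, 1 of 7 was lower by the 1.5-fold rule (Ogn, -0.60), all 7 lay below 0, and their summed level was 1410 TPM in cKO and 1559 TPM in WT, with none at 0. The part of these cells in the Pdgfra value was not tested.

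**Figure D2:**
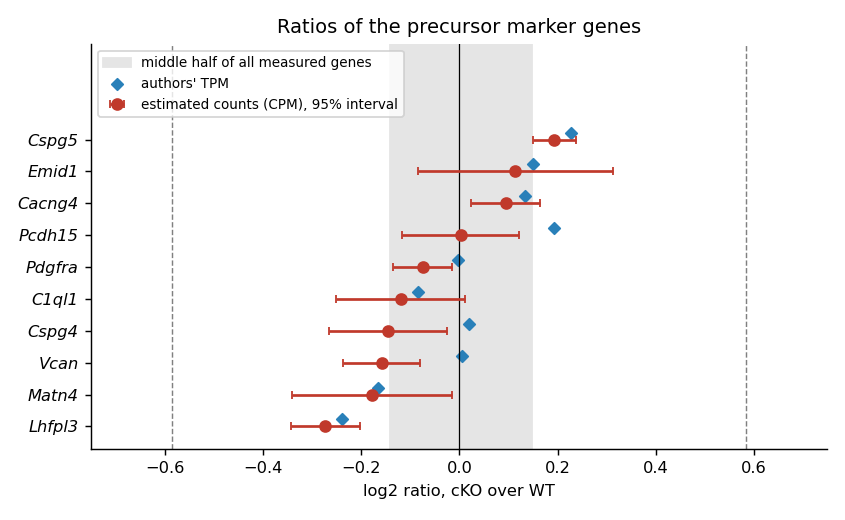
Log2 ratios of cKO over WT for the 10 marker genes, from estimated counts with 95% exact intervals (red circles) and from the authors' TPM (blue diamonds); dashed lines mark 1.5-fold and the grey band holds the middle 50% of measured genes. All circles lie inside the dashed lines, between Lhfpl3 at -0.27 and Cspg5 at 0.19.

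Cspg4, which encodes the NG2 proteoglycan that spans the precursor's membrane, had 2442 counts and 16.04 TPM in cKO, against 2101 counts and 15.8 TPM in WT. It lies on chromosome 9, 56865033 to 56899870 (plus strand). The log2 ratio was -0.145 (-0.27 to -0.02) on counts and 0.02 on TPM, so its direction depended on the unit. Its coding transcript and the sum of its 3 retained-intron transcripts lay on opposite sides of 0. Cspg4-201, the coding form of 10 exons, had 1801 counts in cKO and 1721 in WT, a ratio of -0.30 (-0.43 to -0.16). The 3 retained-intron transcripts together had 641 counts in cKO and 380 in WT, a ratio of 0.39 (0.13 to 0.66). That sum was carried by Cspg4-204, at the 3′ end of the gene, which had 358 counts in cKO and 164 in WT, a ratio of 0.76 (0.38 to 1.16). It held 14.7% of the gene in cKO (12.8% to 16.8%) and 7.81% in WT (6.33% to 9.59%). As for Pdgfra, this division rests on the authors' estimate, and the intervals do not cover that assignment. Pericyte markers, the other main source of Cspg4, had a median of 0.11, with 0 of 8 past the 1.5-fold rule and summed levels of 346 TPM in cKO and 322 TPM in WT. None of them was at 0, and their part in the Cspg4 value was not tested.

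Cspg5, a transmembrane proteoglycan with an EGF-like domain, had the highest ratio of the 10. It lies on the same chromosome, 110243783 to 110262576 (plus strand). It had 20374 counts and 210 TPM in cKO, against 13864 counts and 180 TPM in WT, a log2 ratio of 0.19 (0.15 to 0.24). Its 3 main transcripts kept their shares. By counts, Cspg5-204 held 46.8% in cKO and 46.4% in WT, Cspg5-201 27.3% and 26.1%, and Cspg5-205 21.8% and 22.3%. In TPM, which sets aside transcript length, the order was the reverse. Cspg5-205 held 41.6% in cKO and 42.5% in WT, Cspg5-201 28.4% and 27.1%, and Cspg5-204 23.9% and 23.7%. All 3 were on the higher side in cKO: Cspg5-204 at 0.21, Cspg5-201 at 0.26 and Cspg5-205 at 0.16. Neuronal markers lay on that side too: 8 of 8 were above 0, with a median of 0.20, 0 of 8 past the 1.5-fold rule, none at 0, and summed levels of 4076 TPM in cKO and 3541 TPM in WT. Astrocyte markers did not share that direction, with 4 of 8 above 0, a median of -0.01, and 3708 TPM in cKO and 3687 TPM in WT. The part of neurons in the Cspg5 value was not tested.

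Vcan encodes versican, a matrix proteoglycan that binds hyaluronan and is made in several splice forms. It lies on chromosome 13, 89655312 to 89742509 (minus strand). The gene had 5736 counts and 33.1 TPM in cKO, against 4980 counts and 32.9 TPM in WT. Its log2 ratio was -0.16 (-0.24 to -0.08) on counts and 0.01 on TPM, so the direction again depended on the unit. The forms differ in 2 large exons that carry the chondroitin sulfate attachment regions: exon 7 of Vcan-203, of 2880 nt, and exon 8, of 5217 nt, which make up 28.6% and 51.8% of its coding length. Vcan-203 holds both exons (the form called V0), Vcan-206 holds the second only (V1), and Vcan-202 holds the first only (V2, the form best known from adult brain white matter). The junctions around the large exons are shown because they are what sets these forms apart. Each line gives 20 bases of the upstream exon in lower case and 20 of the downstream exon in capitals, 5′ to 3′ on the transcript strand, from the GENCODE M21 transcript sequences (GRCm38, minus strand of chromosome 13).

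The last base of exon 6 is at 89712205, exon 7 runs from 89705797 to 89702918, exon 8 begins at 89693501, and the next shared exon begins at 89685192.

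Vcan-203, exon 6 to exon 7: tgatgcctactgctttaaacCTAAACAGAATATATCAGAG

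Vcan-203, exon 7 to exon 8: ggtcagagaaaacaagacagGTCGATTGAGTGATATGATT

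Vcan-206, exon 6 to the second large exon: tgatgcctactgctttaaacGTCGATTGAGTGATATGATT

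Vcan-202, first large exon to the next shared exon: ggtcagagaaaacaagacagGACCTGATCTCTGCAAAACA

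The first of these junctions is shared by Vcan-203 and Vcan-202, and the other 3 each belong to 1 of the 3 forms. The form with both large exons was lower in the cKO library, and the forms with 1 of them were higher. Vcan-203 had 2246 counts and 7.51 TPM in cKO, against 2706 counts and 11.35 TPM in WT, a log2 ratio of -0.63 (-0.75 to -0.52) that passed the 1.5-fold rule. Vcan-206 had 1217 counts and 6.07 TPM in cKO, against 657 counts and 4.11 TPM in WT, a ratio of 0.53 (0.33 to 0.73). Vcan-202 had 2133 counts and 15.56 TPM in cKO, against 1503 counts and 13.74 TPM in WT, a ratio of 0.14 (0.01 to 0.28). The 3 leading forms were therefore divided differently. By counts, Vcan-203 held 39.2% of the gene in cKO (37.4% to 41.0%) and 54.3% in WT (52.4% to 56.3%). Vcan-206 held 21.2% (19.8% to 22.8%) and 13.2% (11.9% to 14.6%), and Vcan-202 37.2% (35.4% to 39.0%) and 30.2% (28.4% to 32.0%). In TPM, which sets aside transcript length, Vcan-202 was the most abundant form in both libraries. Vcan-201, with neither large exon (V3), was listed at 0 counts in cKO and 32 in WT. The forms share most of their sequence, and Vcan-203 also ends in a longer last exon (2047 nt, against 1019 nt in Vcan-206 and 714 nt in Vcan-202). The division therefore rests on the authors' estimate and not on junction reads.

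**Figure D3:**
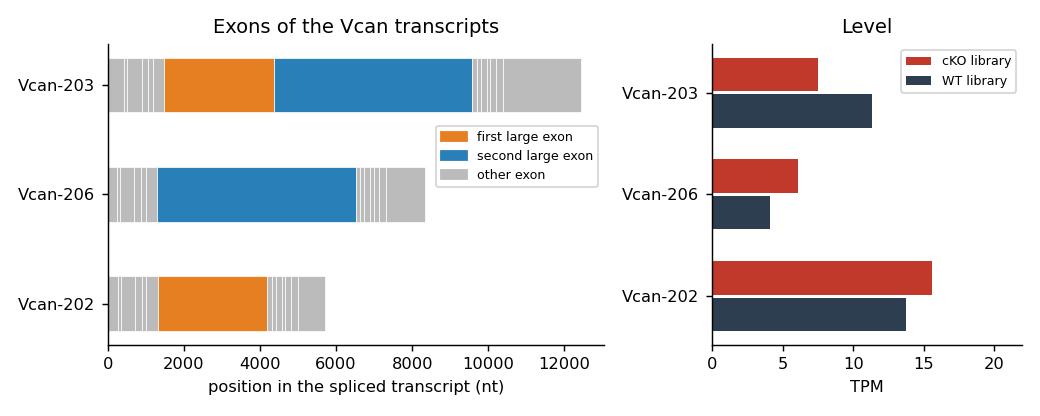
Left, exons of the 3 main Vcan transcripts in spliced order, with the 2 large alternative exons coloured; right, TPM of each transcript in the cKO library (red) and the WT library (dark). The form with both large exons has 7.51 TPM in cKO and 11.35 TPM in WT, while Vcan-206 and Vcan-202 are higher in cKO.

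Genes around these proteoglycans lay within 1.5-fold. Of 14 genes for hyaluronan-bound matrix and its partners, Vcan included, 0 passed the 1.5-fold rule, 8 lay below 0, and the median was -0.01. The most abundant were Bcan (brevican), at 251 TPM in cKO and 281 TPM in WT with a ratio of -0.21, Ncan (neurocan), with -0.01, and the receptor phosphatase gene Ptprz1, with 0.00. Tnr, Hapln2 and Cd44 were lower at the 1.2-fold size, with -0.51, -0.50 and -0.41, and were named after their values were seen. Of 6 proteases known to cleave versican, 0 passed the 1.5-fold rule and the median was -0.04. Adamts4 was the most abundant, at 65.2 TPM in cKO and 84.3 TPM in WT, with -0.41 (-0.48 to -0.34), followed by Adamts9 (-0.01) and Adamts1 (-0.13). Of 19 measured genes of chondroitin sulfate synthesis, 0 passed the rule, 8 lay below 0, and the median was 0.04. B3gat3, Chpf and B4galt7, enzymes of the linker and of the chain, had ratios of 0.04, 0.20 and 0.14. Chst3 (-0.57, interval -0.76 to -0.37) and Chpf2 (-0.27) were lower at the 1.2-fold size and were named after their values were seen. In that list Chst13 was below 1 CPM.

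Pcdh15 encodes a large cadherin best known from the tip links of inner ear hair cells. It covers 1550 kb of chromosome 10, 73099342 to 74649737 (plus strand). It had 2629 counts and 18.2 TPM in cKO, against 2042 counts and 15.9 TPM in WT. The ratio was 0.00 (-0.12 to 0.12) on counts and 0.19 on TPM. As in Cspg4, coding and other transcripts lay apart. The coding transcripts together had 2112 counts in cKO and 1834 in WT, a ratio of -0.16 (-0.29 to -0.03), led by Pcdh15-234 with 65.4% of the gene in cKO and 75.02% in WT (-0.20). The 12 other transcripts together had 517 counts in cKO and 208 in WT, a ratio of 0.95 (0.62 to 1.29). Among them Pcdh15-240, a retained-intron transcript of a single exon of 5272 nt, had 331 counts in cKO and 136 in WT (0.92, interval 0.51 to 1.35). Some coding transcripts had counts in only 1 library: Pcdh15-204 had 0 in cKO and 76 in WT, and Pcdh15-239 had 36 and 0. The split between coding and other transcripts rests on the authors' estimate, and the intervals do not cover that assignment.

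Lhfpl3, a tetraspan membrane protein gene of the family whose member Lhfpl5 joins Pcdh15 in hair cells, had the lowest ratio of the 10. It covers 530 kb of chromosome 5, 22746059 to 23275597 (plus strand). It had 6909 counts and 102 TPM in cKO, against 6495 counts and 120 TPM in WT. The ratio was -0.27 (-0.34 to -0.20), or 1.21-fold lower in cKO, and -0.24 on TPM. Its 2 transcripts, which begin at different first exons, were lower alike: Lhfpl3-201 at -0.29 and Lhfpl3-202 at -0.25, with 51.6% and 48.4% of the gene in cKO and 52.3% and 47.7% in WT. The antisense gene A930003O13Rik overlaps its exons with 307 counts in cKO and 254 in WT, 4.44% and 3.91% of the Lhfpl3 counts. The counting strand is not given in the sources used here. Of the 8 measured genes of the Lhfpl family, Lhfpl3 included, and the Pcdh15 partners, 0 passed the 1.5-fold rule, 5 lay above 0, and the median was 0.14. Lhfpl4 (0.13) and Cib2 (0.15) were, with Lhfpl3, the most abundant. The hair cell channel genes Tmc1 and Tmc2 were below 1 CPM, and Lhfpl1 was at 0 in both libraries.

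Cacng4 encodes a transmembrane regulator (TARP) of AMPA receptors, the glutamate receptors at synapses onto precursors. It lies on chromosome 11, 107732357 to 107794557 (minus strand). It had 7700 counts and 92.0 TPM in cKO, against 5612 counts and 83.8 TPM in WT, a ratio of 0.09 (0.02 to 0.16). A single transcript, Cacng4-201, held 99.9% of the gene in both libraries. Of the 10 AMPA receptor subunit and TARP genes, Cacng4 included, 0 passed the 1.5-fold rule, 7 lay above 0, and the median was 0.11. Cacng7, Gria2 and Gria4, the most abundant, had ratios of -0.02, 0.00 and 0.00. The highest in that list was Cacng5 (0.46, interval 0.34 to 0.59), named after its value was seen.

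The other 3 markers encode secreted proteins. C1ql1 encodes a C1q-like protein that binds the adhesion receptor encoded by Adgrb3, and lies on chromosome 11, 102939264 to 102946688 (minus strand). It had 2081 counts and 58.7 TPM in cKO, against 1759 counts and 62.2 TPM in WT. Its ratio was -0.12, and the interval of -0.25 to 0.01 held a ratio of 1. Only 1 transcript is listed. Of the 7 C1q-like and receptor genes, C1ql1 included, 1 was higher by the 1.5-fold rule and 0 lower. That gene was C1ql4, at 8.40 TPM in cKO and 4.65 TPM in WT (0.82, interval 0.26 to 1.40), on 177 and 78 counts. The receptor genes Adgrb1, Adgrb2 and Adgrb3 had 0.18, 0.28 and 0.21.

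Matn4 encodes matrilin-4, an extracellular adaptor protein, and lies on chromosome 2, 164389393 to 164405160 (minus strand). It had 1323 counts and 18.02 TPM in cKO, against 1165 counts and 20.2 TPM in WT, a ratio of -0.18 (-0.34 to -0.02). More than 50% of its counts were assigned to a retained-intron transcript in both libraries: Matn4-205 held 55.9% in cKO (52.1% to 59.7%) and 53.2% in WT (49.2% to 57.2%). That transcript is the longer, at 4113 nt against 2304 nt for the coding Matn4-201. In TPM, which sets aside length, Matn4-205 held 41.5% in cKO and 38.9% in WT, and Matn4-201 58.5% and 61.1%. The coding transcript Matn4-201 had a ratio of -0.26 (-0.51 to -0.02). Rbpjl overlaps exons of Matn4 on the other strand, with 93 counts in cKO and 76 in WT.

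Emid1, a secreted protein with an EMI domain and collagen repeats, lies on chromosome 11, 5106265 to 5152257 (minus strand). It had 1010 counts and 26.8 TPM in cKO, against 726 counts and 24.2 TPM in WT. The ratio of 0.11 had an interval of -0.08 to 0.31, which holds a ratio of 1. Its 2 longest named transcripts differ at the start of exon 3 by 6 bases, shown in capitals. Exon 2 ends at 5144295 on the minus strand, and exon 3 begins at 5143930 in Emid1-201 and at 5143924 in Emid1-208.

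Emid1-201, exon 2 to exon 3: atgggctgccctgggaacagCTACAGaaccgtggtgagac

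Emid1-208, exon 2 to exon 3: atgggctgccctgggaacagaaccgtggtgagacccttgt

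Emid1-201, with the extra bases, had 744 counts in cKO and 419 in WT, a ratio of 0.47 (0.22 to 0.72). Emid1-208, without them, had 110 counts in cKO and 157 in WT, a ratio of -0.88 (-1.40 to -0.36). Their shares were 73.7% (69.7% to 77.3%) and 10.9% (8.46% to 13.9%) in cKO, against 57.7% (52.6% to 62.7%) and 21.6% (17.7% to 26.2%) in WT. Emid1-203, which starts further downstream, was lower as well, with 55 counts in cKO and 84 in WT (-0.97, interval -1.72 to -0.25). As for Vcan, this division rests on the authors' estimate and not on junction reads, and the intervals do not cover that assignment. Of 9 measured matrilin and EMI domain genes, Matn4 and Emid1 included, 1 was lower by the 1.5-fold rule (Matn3, -0.92, on 93 counts in cKO and 137 in WT) and 0 were higher. Matn2, the most abundant of them, had -0.01.

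**Figure D4:**
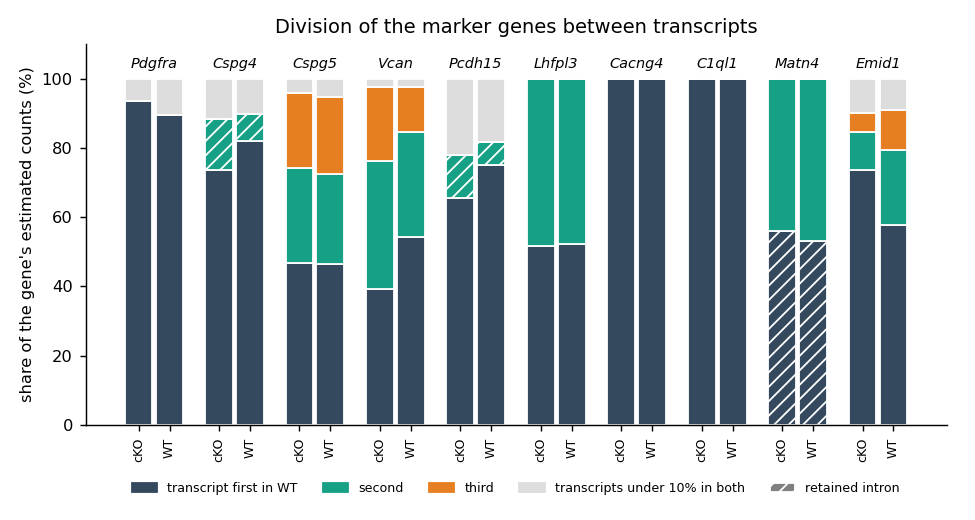
Share of each marker gene's estimated counts held by its transcripts, as stacked bars for the cKO library (left of each pair) and the WT library (right); hatched segments are retained-intron transcripts and grey is the sum of transcripts under 10% in both. Vcan, Emid1, Pcdh15 and Cspg4 divide differently in the 2 libraries, with the leading Vcan transcript at 39.2% in cKO and 54.3% in WT, while Cspg5 and Lhfpl3 do not shift by more than 2 percentage points.

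Transcripts passed the 1.5-fold rule more often than genes did across the whole table. Of the 31 transcripts of the marker genes with a mean of at least 1 CPM, 6 were higher and 5 lower by the 1.5-fold rule. Among all 32757 such transcripts 13.2% were higher and 12.9% lower, so calls at this level were frequent everywhere. Of the 7 measured retained-intron transcripts of the marker genes, 5 lay above 0, 4 were higher by the rule, and the median was 0.76. The 4 included Pcdh15-240 and Pcdh15-206, which belong to the same gene. Over all 4423 measured retained-intron transcripts the median was 0.06, with 54.8% above 0, 15.8% higher and 11.8% lower. Retained-intron transcripts, measured or not, held 3.09% of all counts in cKO and 2.98% in WT.

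Differences in ratio among the markers themselves, which no library scaling can change, were about as common as among other genes of like abundance. In 16 of the 45 pairs of marker genes the counting intervals of the ratios did not overlap. The same held for 25.8% of the pairs of all measured genes, and for 38.8% of the pairs of genes within the markers' range of mean CPM. Cspg5 was in 7 of these pairs, Cacng4 in 6 and Lhfpl3 in 5, and each of the 16 involved at least 1 of them. The widest gap was 0.47 on the log2 scale, between Lhfpl3 and Cspg5. Cspg4, Vcan, Matn4 and C1ql1, with ratios from -0.18 to -0.12, had intervals that overlapped each other.

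Other genes enriched in precursors gave a wider range. Of 19, 1 was lower by the 1.5-fold rule, 0 were higher and 13 lay below 0, with a median of -0.04. The gene past the rule was Scrg1, at 90.8 TPM in cKO and 145 TPM in WT (-0.71, interval -0.85 to -0.57). The most abundant were Serpine2 (-0.04), Bcan and Ncald (0.08). At the 1.2-fold size 5 were lower and 1 higher. Named after their values were seen, the lower ones included, besides Scrg1, Olig2 (-0.53), Tnr and Luzp2 (-0.39), and the higher one was Dscam (0.31). Olig2 encodes a transcription factor of the lineage. Proliferation genes had a median of -0.02 with 0 of 12 past the 1.5-fold rule, and the most abundant, Pcna, Ccnd1 and Top2a, had -0.24, -0.25 and 0.02. Among cell types not yet named, the medians were 0.13 for 5 endothelial, -0.14 for 5 microglial, 0.13 for 5 Schwann cell and -0.07 for 4 ependymal markers, with 0 past the 1.5-fold rule in each list.

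**Figure D5:**
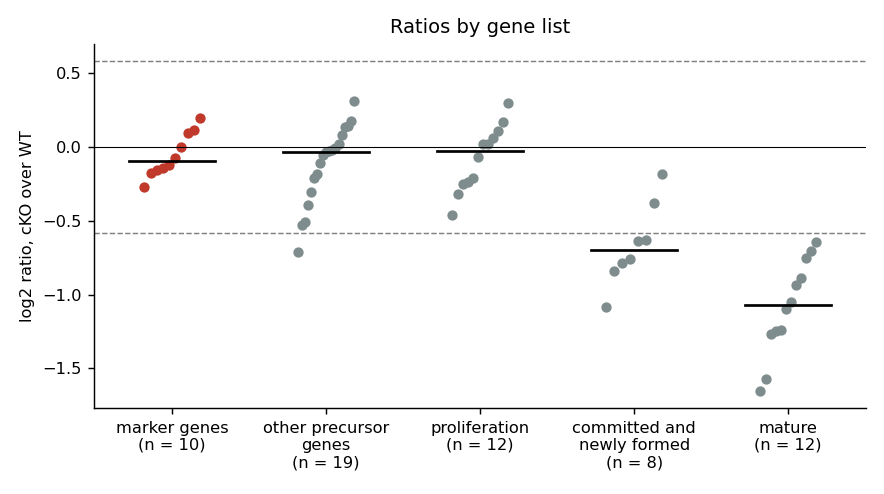
Log2 ratios of cKO over WT for single genes (points) with the median of each list (bars), for the 10 marker genes in red and 4 other lists in grey; dashed lines mark 1.5-fold. The marker genes lie between the dashed lines, while all 12 mature oligodendrocyte genes lie below the lower one.

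Most genes of later stages of the lineage stood lower than the markers. Of 8 genes of committed precursors and newly formed oligodendrocytes, 6 were lower by the 1.5-fold rule and 0 higher, with a median of -0.70 and summed levels of 481 TPM in cKO and 795 TPM in WT. They included Bcas1 (-0.84), Gpr17 (-0.64) and Enpp6 (-0.76), followed by Bmp4, Neu4 and Cnksr3. The 2 not past the rule, Itpr2 (-0.38) and Tcf7l2 (-0.18, interval -0.43 to 0.07), were named after their values were seen, and Tcf7l2 lay within the range of the marker genes. All 12 mature oligodendrocyte genes were lower, with a median of -1.07 and summed levels of 8165 TPM in cKO and 15835 TPM in WT. Mbp and Mobp, which encode myelin proteins and are among the most abundant of them, had -0.89 and -1.24. The highest ratio among the mature genes, -0.65, lay below the lowest among the 10 precursor markers, -0.27. No test of the difference between the lists was possible with 1 library per group, and earlier results of these libraries were known when the lists were drawn up.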

How the data were processed

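Whole spinal cord RNA (1 cKO and 1 WT library) was sequenced from an mRNA kit, per the labels' protocols. CASAVA, Bowtie2 2.3.2 and build GRCm38.p6 come from the submitters' processing notes. Which counter, annotation and strand setting were used is not given in the sources used here. Per the file headers, the deposited tables hold estimated counts, TPM and FPKM for each gene and transcript, made by the authors from aligned reads. The counts are whole numbers that follow FPKM times length rounded up per transcript (98.8% of low transcripts in both libraries, allowing 0.1). In single-transcript genes of at most 10 counts, that product lay within 0.2 of an even number for 34.3% in cKO and 36.1% in WT, and of an odd number for 18.7% and 17.8%. Intervals were therefore computed with 2 counts as 1 fragment.

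Library sizes were scaled with TMM factors (0.9994 in cKO, 1.0006 in WT; edgeR 4.0.16, R 4.3.3). Ratios use no pseudocount; where a library had 0 counts, a floor of 3 fragments took its place. Ratio intervals are exact (Clopper-Pearson), shares have Wilson intervals, and levels Poisson intervals (scipy 1.17.1, Python 3.11.15). PCR copies are not independent molecules, so these intervals cover counting error only. They also leave out any error in the authors' division of reads between transcripts. With 1 library per group no test was run. The interval script was tested on simulated fragments of 2 counts each with Poisson error, the model the intervals assume. That run cannot check the 2 counts per fragment, the division between transcripts or the spread between animals. Genes with a mean of at least 1 CPM were counted at 1.5-fold and 1.2-fold with an interval leaving out 1. Named were the 10 members, their transcripts with at least 10% of the gene in either library, and from each list up to 6 genes past 1.5-fold and the 3 of highest TPM. Some genes that this rule names are not reported here. The members and lists were chosen with earlier results of these data known. Transcript structures are from GENCODE M21 (GRCm38), in which all 86 transcripts and all 10 gene positions matched. Alternatives covered scaling, unit, filter, overlapping genes and choice of transcripts.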

Additional observations from a re-analysis of the deposited data

How the results depend on the processing

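Neither group has a replicate that could be left out. Lhfpl3, the only marker gene past a size rule, did not change sign under the alternatives. Of 81 ratios of marker genes that an alternative could change, 63 stayed within the counting interval of the reported value. The ratios of Cspg4 and Vcan, which passed no rule, turned positive on TPM. Total counts and DESeq2 1.42.0 size factors changed no count of marker genes past a rule. Lhfpl3 lay at the limit of the 1.2-fold rule: with upper quartile scaling 0 genes were lower by it, and likewise 0 on TPM after adding 0.1 or 1. On TPM the median of the 10 was 0.013 with a pseudocount of 0.1 and 0.012 with 1. Both are opposite in sign to the reported -0.10, and the cause was not tested. Over all measured genes the TPM median with a pseudocount of 0.1 was 0.05. With only the transcript of highest mean CPM in each gene, 1 gene was 1.5-fold lower (Vcan, -0.63). By the same choice 3 were 1.2-fold lower and 1 was 1.2-fold higher (Emid1, 0.47). With protein-coding transcripts only, chosen after seeing the data, 3 were 1.2-fold lower. In the other lists, 21 genes were 1.5-fold lower and 1 higher; with a filter of 5 CPM 0 were higher, since C1ql4 falls under that filter. As shares of TPM, added after seeing the data, Vcan-203 held 22.7% in cKO and 34.5% in WT, Vcan-202 47.1% and 41.8%, and Vcan-206 18.4% and 12.5%, in the same directions. No paired analysis was possible because each group has 1 library. Depth limits Emid1, Matn4 and C1ql1 most, whose intervals are the widest of the 10.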
